A study of Mus musculus with 28 samples.

Results

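The comparison described here is the addition of NKX2.5 to a 3-factor cardiac cocktail, measured as NGMT against GMT cells in each of 2 array series. Its members are all samples titled NGMT (6 arrays) and all titled GMT (5 arrays), 11 of the 28 arrays of the study. Series 1 held 3 NGMT and 2 GMT arrays (NGMT replicates 1 to 3, GMT replicates 1 and 2), and series 2 held 3 NGMT and 3 GMT arrays (NGMT replicates 4 to 6, GMT replicates 3 to 5). NGMT cells were mouse embryonic fibroblasts (MEFs) that received lentiviruses for NKX2.5, GATA4, MEF2C and TBX5, each under a doxycycline-controlled (tetO) promoter. GMT cells were MEFs that received the same vectors for GATA4, MEF2C and TBX5 without NKX2.5. Both groups also carried the doxycycline-dependent activator rtTA and a reporter, TroponinT-GCaMP5-Zeo, in which a troponin T promoter drives a calcium sensor and zeocin resistance. MEFs were plated at 75000 cells per well and kept in 2 μg/mL doxycycline, and RNA was taken on day 21 after 7 days of zeocin at 300 μg/mL. Other groups used beside the comparison were HNGMT (3 arrays) and HGMT (3 arrays), which received Hand2 in addition to NGMT and GMT, and 0F, MEFs with no factor and, by the protocol, no virus (3 arrays). The labels of 0F list 75000 cells per well and day 21 but no doxycycline or zeocin. DMT and DMNT arrays, whose cells received MYOCD, also entered the fit of all 28 arrays and its shared spread. The zeocin step keeps cells in which the troponin T promoter is active, so NGMT and GMT are selected populations and not all cells that took up virus. Replicates are described as independent biological replicates.

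NKX2.5 is a homeodomain transcription factor made early in heart formation, and in mouse embryos its loss stops heart looping and lowers a known group of cardiac genes. It binds DNA next to GATA4 and TBX5 at cardiac promoters, and the promoter of Nppa, which encodes atrial natriuretic peptide, is the textbook site of this cooperation. Atrial natriuretic peptide and brain natriuretic peptide (Nppb) are hormones of the heart that act through guanylyl cyclase receptors to lower blood pressure.

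The promoters of these peptide genes are shown because Nppa gave the largest change of the comparison and Nppb lies beside it. Both are on the plus strand of mouse chromosome 4 with start sites 14822 bases apart. The 250 bases before each start site, from RefSeq on GRCm38.p6, are at chr4:148000472-148000721 for Nppa and chr4:147985650-147985899 for Nppb. Capitals mark the cores searched on both strands: AAGTG for NKX2.5, TCACACC for T-box factors, GATAA (or TTATC as read here) for GATA factors and, for MEF2, CTA and TAG with 4 bases between them.
Nppa: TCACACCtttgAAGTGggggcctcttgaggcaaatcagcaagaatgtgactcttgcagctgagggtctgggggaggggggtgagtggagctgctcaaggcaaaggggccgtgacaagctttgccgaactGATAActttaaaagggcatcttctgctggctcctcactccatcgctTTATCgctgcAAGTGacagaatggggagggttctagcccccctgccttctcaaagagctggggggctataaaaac
Nppb: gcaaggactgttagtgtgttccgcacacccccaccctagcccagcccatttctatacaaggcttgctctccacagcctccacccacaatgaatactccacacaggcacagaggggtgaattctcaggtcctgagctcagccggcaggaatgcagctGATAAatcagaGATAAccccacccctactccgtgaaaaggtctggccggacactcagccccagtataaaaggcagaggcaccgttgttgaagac
The Nppa window held AAGTG at -239 to -235 and at -65 to -61 from the start site. It also held TCACACC at -250 to -244 and the GATA core at -121 to -117 and, on the other strand, at -75 to -71. The Nppb window held the GATA core at -94 to -90 and at -83 to -79, and the letters of the other 3 cores were not in it. AAGTG is a short core that occurs in 40.7% of all 32851 promoter windows of this length, GATAA in 22.6%, TCACACC in 3.33% and the MEF2 core in 3.20%. Among the 190 windows of genes called in NGMT against GMT, AAGTG was in 39.5%, against 36.8% of the 12445 windows of all genes tested. GATAA was in 28.4% of the windows of called genes, against 14.4% of those of all genes tested. These windows cover 145 of the 199 called genes and 9739 of the 12211 tested, and some genes have several windows, each counted. The difference in share was not tested. A match is a description of the letters and does not show binding.

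Array medians of log2 signal were 6.69 to 6.75 in series 1 and 6.87 to 6.92 in series 2, so levels are compared only inside a series. Differences (log2, with ± for the standard error) were estimated with limma on all 28 arrays, with terms for group and array set. A gene is called, and is said to have risen or fallen, where its Benjamini-Hochberg adjusted p over 12211 genes was under 0.05. The zeocin-selected cells showed the label's cardiac marker: Tnnt2, the cardiac troponin T gene, read 11.83 to 11.87 on NGMT and 11.96 and 12.10 on GMT arrays of series 1, against 6.72 to 7.04 on 0F arrays. In series 2 it read 12.40 to 12.61 on NGMT and 12.57 to 12.71 on GMT arrays. Myh6, the gene of the adult atrial and ventricular myosin heavy chain in mouse, was below the array median on all 11 arrays. It read 5.59 to 5.68 on NGMT, 5.71 and 5.73 on GMT and 5.66 to 5.75 on 0F arrays of series 1, and 6.65 to 6.80 on NGMT and 6.53 to 6.82 on GMT arrays of series 2. Adipocyte and macrophage marker lists were at lower summed signal in both groups of series 1 than in 0F cells. The sum of 18 adipocyte markers was 13.08 to 13.10 in NGMT and 13.03 to 13.06 in GMT of series 1 (log2 of the summed signal), 13.39 to 13.63 in NGMT and 13.20 to 13.53 in GMT of series 2, and 16.17 to 16.24 in 0F. For 15 macrophage markers it was 10.66 to 10.69 in NGMT and 10.66 to 10.82 in GMT of series 1, 10.62 to 11.15 in NGMT and 10.66 to 10.88 in GMT of series 2, and 13.02 to 13.63 in 0F. Lyz2, a macrophage lysozyme gene, read 8.59, 6.29 and 6.70 on the NGMT arrays of series 2, against 5.87, 6.04 and 6.68 on the GMT arrays. In series 1 it read 5.26 to 5.35 in NGMT, 5.199 and 5.392 in GMT and 11.60 to 11.86 in 0F.

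The probe set of Nkx2-5 itself did not separate the groups. It read 7.77, 7.52 and 7.62 on the NGMT arrays of series 1, against 7.73 and 7.73 on GMT arrays and 7.73, 7.79 and 7.69 on 0F arrays. In series 2 it read 7.95, 7.92 and 8.02 on NGMT arrays, against 7.999, 7.99 and 7.83 on GMT arrays (both series -0.03 ± 0.05, limma adjusted p = 0.975). NGMT and GMT overlapped in both series. Gata4 (-0.09 ± 0.06), Mef2c (0.01 ± 0.06) and Tbx5 (-0.00 ± 0.08), the factors that both groups received, were also not called. The sources used here do not say whether these probe sets detect the viral coding sequences, so they do not check the labels.

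Nppa rose in both series. It read 12.13, 12.17 and 12.25 on the NGMT arrays of series 1, against 8.87 and 9.20 on the GMT arrays of that series. The corresponding signal in series 2 was 10.81, 10.21 and 10.62 for NGMT, against 7.56, 7.58 and 7.87 for GMT. The 3 MEF arrays without factors read 6.25, 6.27 and 6.23, below the median of their arrays. Every NGMT array thus lay above every GMT array of its series, and the 2 groups were over 2 log2 units apart. The difference was 2.99 ± 0.09 over both series, a 7.97-fold change (limma adjusted p = 1.02e-16, 95% interval 2.80 to 3.19). It was 3.15 ± 0.14 in series 1 and 2.87 ± 0.12 in series 2, and a difference between series was not called (adjusted p for the interaction contrast = 1.00). In bulk RNA, more cells with the transcript and more transcript per cell cannot be told apart.

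Nppb rose with both series together, by 0.73 ± 0.11 (limma adjusted p = 0.00111). Its signal in series 1 was 8.89, 9.17 and 9.003 in NGMT, against 7.57 and 8.15 in GMT, and 6.03 to 6.12 in 0F. In series 2 it was 7.64, 7.36 and 7.60 in NGMT, against 7.30, 7.15 and 7.00 in GMT. The groups did not overlap in either series, but the gap was narrow in series 2. The difference was 1.16 ± 0.12 in series 1 and 0.38 ± 0.11 in series 2, where it was not called (adjusted p = 0.620), and the difference between the series was called (0.78, adjusted p = 0.0274).

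**Figure D1:**
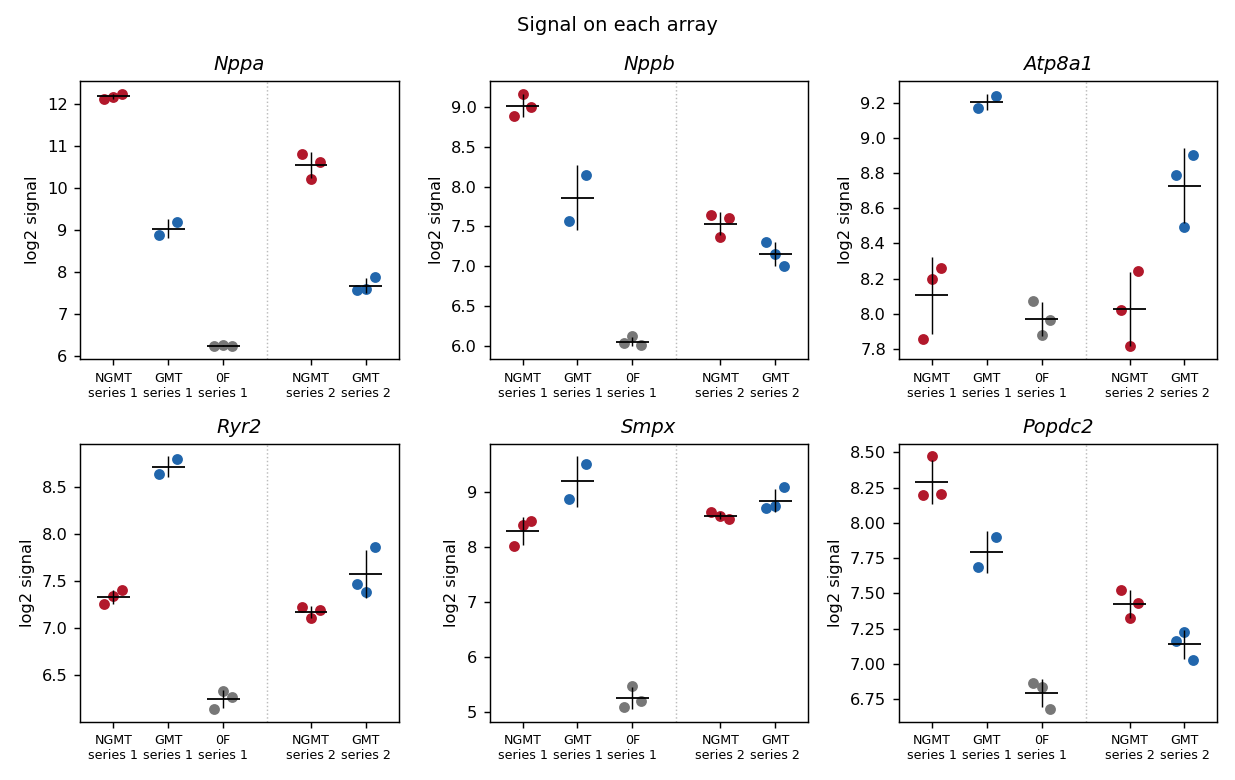
Log2 signal on each array for 6 genes, with NGMT left of GMT in series 1 and in series 2, and 0F arrays of series 1 in grey. Each dot is an array, the horizontal line is the group mean and the vertical line is 1 SD. Nppa, Nppb and Popdc2 lie higher and Atp8a1, Ryr2 and Smpx lower in NGMT in both series, with the wider gap in series 1 for all 6.

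With both series in 1 fit, 199 of 12211 genes (1.63%) were called between NGMT and GMT, 84 higher in NGMT (0.688%) and 115 lower (0.942%). Nppa was the only one with a change of at least 1 on the log2 scale. The other 83 rises ran from 0.09 to 0.91 with a median of 0.36, and the falls from -0.94 to -0.12 with a median of -0.34. All 199 had the same sign in both series, and in 99 of them (49.7%; 32 higher, 67 lower) no NGMT array overlapped a GMT array of its series. Over all genes tested, 275 (2.25%) had no overlap in the same direction, 107 higher (0.876%) and 168 lower (1.38%). Of all genes, 57.5% had the same sign in both series. The 199 were called from these same arrays, so their shares are partly fixed by the selection and do not test agreement between series.

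The series differed in how many genes they carried. In series 1, 574 genes (4.70%) were called, 282 higher (2.31%) and 292 lower (2.39%) in NGMT, and 29 of them changed by at least 1 log2 unit. In series 2, 4 genes (0.0328%) were called. There 1 gene rose (0.00819%), Nppa, and 3 fell (0.0246%), Atp8a1, Cd83 and Upk1b. At an unadjusted p under 0.05 there were 1632 genes in series 1 and 367 in series 2. Of the 574 genes called in series 1, 455 (79.3%) had the same sign in series 2, but their median size was 0.43 in series 1 and, signed the same way, 0.07 in series 2. Across genes the differences of the 2 series, which share no array, had Pearson's r = 0.39, and 0.36 without Nppa. Genes are not independent, so this r is a description.

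**Figure D2:**
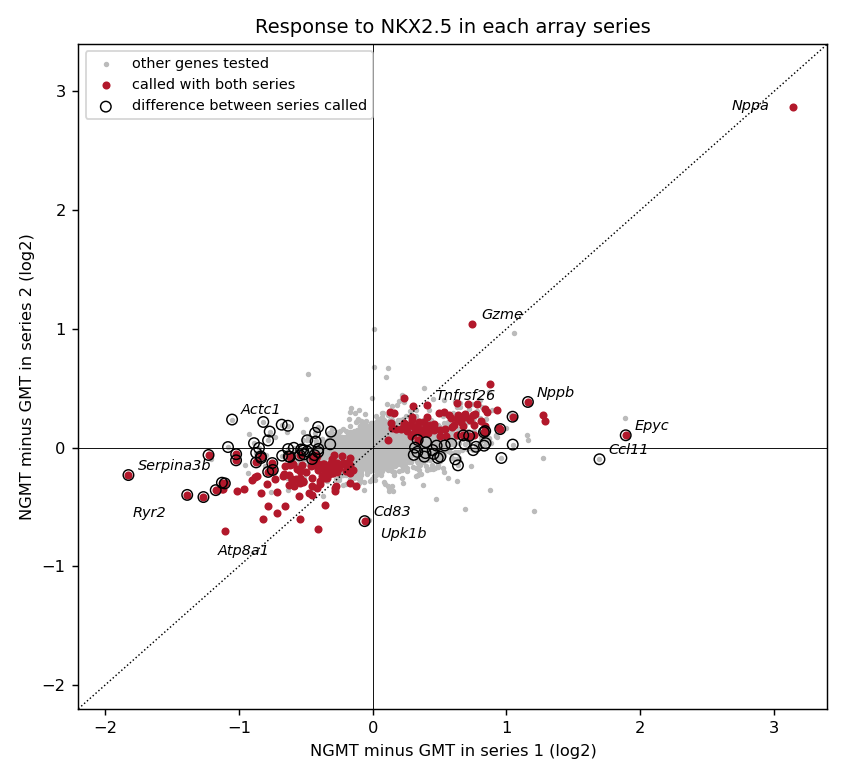
Difference NGMT minus GMT (log2) in series 1 on the x axis and series 2 on the y axis, 1 dot per gene tested. Red dots are the 199 genes called with both series, circles the 78 genes whose difference between series was called, and the dotted line marks equal change. Nppa lies near that line at 3.15 and 2.87, while most other red dots lie nearer to the x axis.

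By the strictest rule, in which each series alone had to show the change in the same direction (the larger of the 2 series p-values, adjusted over all genes), 2 genes (0.0164%) agreed. These were Nppa (adjusted p = 4.81e-13) and Atp8a1 (adjusted p = 0.0246). Atp8a1 encodes a phospholipid flippase that keeps aminophospholipids on the inner side of membranes. In series 1 it read 7.86, 8.20 and 8.26 in NGMT, against 9.17 and 9.24 in GMT, and 7.88 to 8.07 in 0F. In series 2 it read 8.02, 7.82 and 8.24 in NGMT, against 8.79, 8.49 and 8.90 in GMT. No array overlapped, and the NGMT arrays of series 1 lay near the 0F level while the GMT arrays lay above it. Its difference was -0.88 ± 0.09 over both series (limma adjusted p = 1.47e-05), -1.10 ± 0.13 in series 1 and -0.70 ± 0.12 in series 2. With series 2 fitted alone, the fall of Atp8a1 was not called (limma adjusted p = 0.999). In a fit of the 11 arrays alone the fall in series 2 was not called, which left Nppa as the only gene that agreed. Nppa was also the only one without GMT replicate 3, GMT replicate 5, NGMT replicate 4 or NGMT replicate 5, where the fall of Atp8a1 in series 2 was -0.70 to -0.60 and not called (adjusted p = 0.0786 to 0.196).

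Genes just past that rule were chosen after their values were seen. Tnfrsf26, a receptor gene of the TNF family, was higher by 0.40 ± 0.08 in series 1 and 0.36 ± 0.07 in series 2 (adjusted p for agreement = 0.139). Phyhip differed by -0.41 ± 0.08 in series 1 and -0.34 ± 0.07 in series 2, and Ryr2 differed by -1.39 ± 0.09 and -0.40 ± 0.08, both with an adjusted p for agreement of 0.263. With no adjustment, 152 genes had p under 0.05 and the same sign in each series, and 124 of them were among the 199.

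The fit of the 11 NGMT and GMT arrays alone, which gives the same differences with a spread from fewer arrays, called 19 genes (0.156%), 16 of them among the 199. None of the 19, which were called from these same arrays, overlapped within a series. Besides Nppa, Atp8a1 and Tnfrsf26 they included the hexokinase gene Hk2 (-0.47, adjusted p = 0.0319 in that fit), Acaa2 of mitochondrial fatty acid oxidation (-0.29, 0.0406), the basement membrane gene Nid2 (-0.27, 0.0417), the melanosome transport gene Mlph (-0.42, 0.0406) and the potassium chloride cotransporter Slc12a7 (-0.33, 0.0406). Among the 3 called there and not with 28 arrays was Wfdc17, a secreted protein gene abundant in macrophages, at 1.01 ± 0.37 (adjusted p = 0.00306 with 11 arrays and 0.231 with 28). It read 7.12, 6.79 and 7.01 in NGMT against 6.00 and 5.84 in GMT of series 1, and 7.65, 7.32 and 7.45 in NGMT against 6.35, 6.84 and 6.32 in GMT of series 2, with 10.87 to 11.22 in 0F. The other 2 were Il13ra2 (0.53) and Scarna17 (-0.22). Wfdc17, Scarna17 and the other genes of this paragraph outside the naming rule were chosen after their values were seen.

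The spread shared by all 28 arrays moved with arrays outside the comparison. A set of 5 arrays (DMT replicate 4 and the 4 DMNT arrays) had a mean of 26.9% of genes tied between pairs of arrays, against 4.43% in the set of series 1 and 1.09% in that of series 2. HNGMT replicate 1 stood apart from the other HNGMT arrays (pooled SD of HNGMT 0.207, against 0.0827 to 0.129 in the other groups of that set). Without those 5 arrays 101 genes were called with both series, without HNGMT replicate 1 there were 386, and without both 224. Inside the comparison, GMT replicate 5 stood apart in series 2, with a deviation from its group mean of 0.134 (SD over genes), against 0.0586 to 0.0941 for the other arrays of series 2. It read higher than GMT replicates 3 and 4 for Igfbp5 (11.85, against 8.87 and 8.95) and the hypoxia-induced carbonic anhydrase Car9 (9.61, against 6.48 and 6.88). Without it 211 genes were called. The count fell most without a GMT array of series 1: 66 genes were called without GMT replicate 1 and 52 without GMT replicate 2. Without NGMT replicate 1 there were 92, without NGMT replicate 2 87, and without GMT replicate 4 379. Of 49 genes named by rule and called with both series, 27 lost the call without GMT replicate 2, 26 without GMT replicate 1, 19 without NGMT replicate 2 and 17 without NGMT replicate 1. Without any other 1 of the 11 arrays 0 to 10 lost it.

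**Figure D3:**
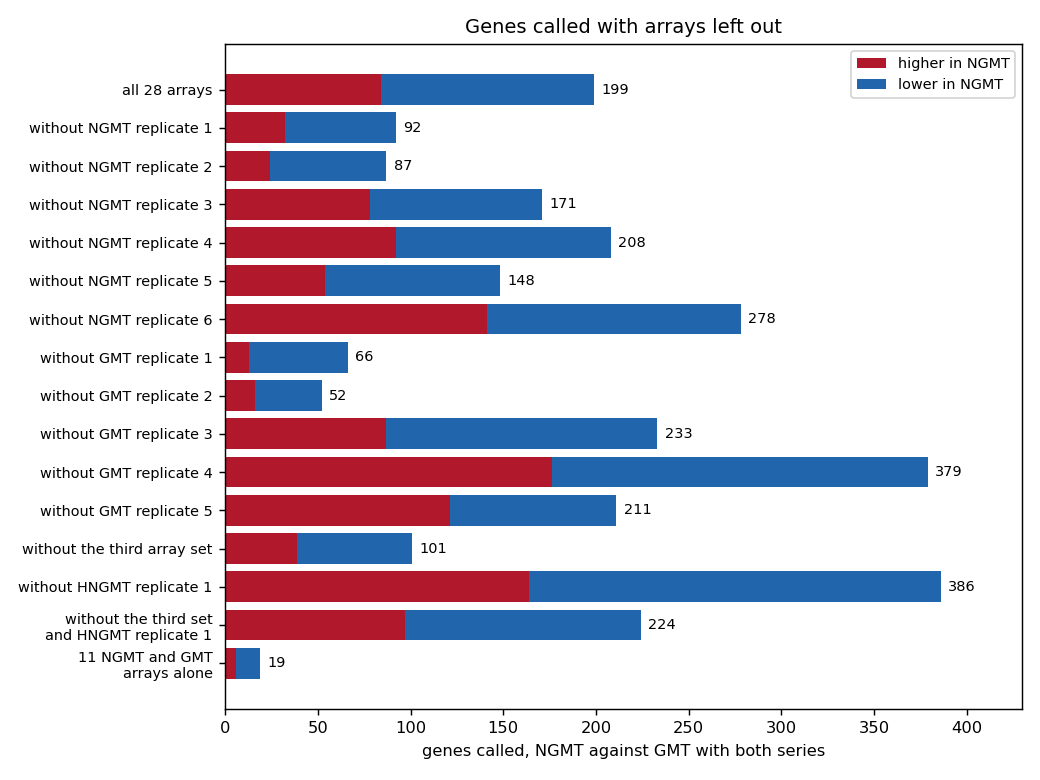
Genes called in NGMT against GMT with both series, by the arrays left out of the fit, with rises in red and falls in blue. The total is printed at each bar and runs from 19 with the 11 arrays alone to 386 without HNGMT replicate 1, beside 199 with all 28.

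Among genes that fell without overlap in either series, 12 with the largest change were taken by rule. All 12 were called in series 1, Atp8a1 alone in series 2, and all 12 remained called without GMT replicate 2 and without GMT replicate 5. With the 11 arrays alone 2 of the 12 were called, Atp8a1 and Cck. The 12 were picked from these same arrays by their calls and sizes, so such counts are partly fixed by the selection. Ryr2, the gene of the ryanodine receptor that releases calcium from the sarcoplasmic reticulum, read 7.25, 7.33 and 7.40 in NGMT, against 8.64 and 8.79 in GMT of series 1. In series 2 it read 7.22, 7.10 and 7.19 in NGMT, against 7.47, 7.38 and 7.86 in GMT, and 0F arrays read 6.14 to 6.33. NGMT was lower in both series, and in series 1 it stayed above the 0F arrays. The fall of Ryr2 was -0.84 ± 0.12 (limma adjusted p = 6.58e-04).

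Rrad and Pkp2 were also among the 12 falls. Rrad, a small GTPase that restrains calcium channels, fell by 0.62 on the log2 scale, with 8.97, 9.30 and 9.21 in NGMT against 9.94 and 10.31 in GMT of series 1. Pkp2, a desmosome gene of the cardiac intercalated disc, fell by 0.58, with 7.66, 7.71 and 7.74 in NGMT against 8.36 and 8.71 in GMT of series 1. In series 2 Rrad differed by -0.35 ± 0.10 and Pkp2 by -0.39 ± 0.11, neither called there. The peptide hormone gene Cck fell (-0.70 ± 0.13), with 10.54, 10.57 and 10.54 in NGMT against 11.33 and 11.41 in GMT of series 1, and 9.71, 9.71 and 9.99 in NGMT against 10.44, 10.08 and 10.69 in GMT of series 2. Its 0F arrays read 5.92 to 6.65. Gucy1b1, the beta subunit of the nitric oxide receptor soluble guanylyl cyclase, fell (-0.72 ± 0.11), to 6.09 to 6.26 in NGMT against 7.34 and 7.34 in GMT of series 1. Its signal in series 2 was 5.81 to 5.92 in NGMT and 5.99 to 6.49 in GMT, below the array median in both groups. The NGMT arrays of series 1 and the 0F arrays (6.53) also lay below their array medians, so the size of its fall is uncertain. The remaining falls of the 12 were Ano4, Asb4, Bmp3, Sphkap, Gpr165 and Ap1s3, from -0.69 to -0.62.

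Nppa, Gzme and Epyc were the largest of 12 rises taken by the same rule, of which 11 were called in series 1 and 1, Nppa, in series 2. All 12 stayed called without GMT replicate 5, 5 without GMT replicate 2 and 2 with the 11 arrays alone. These counts are also partly fixed by the selection. Gzme, a granzyme gene, was the 1 rise of the 12 not called in series 1. It rose by 0.91 ± 0.17 with both series, and its difference was 0.74 ± 0.26 in series 1 and 1.04 ± 0.23 in series 2. It read 6.60, 6.88 and 6.98 in NGMT against 5.70 and 6.46 in GMT of series 1, and 7.19, 6.27 and 6.81 in NGMT against 5.93, 5.68 and 5.53 in GMT of series 2. All GMT arrays and NGMT replicates 1, 5 and 6 lay below their array median, where a reading can be background, and the size is uncertain for that reason. Among NGMT, GMT, 0F, HNGMT and HGMT arrays, only NGMT replicates 2, 3 and 4 lay above it. Within these groups Gzme thus met the minimum of 3 arrays only where it was high, which limits what its call can show. Epyc, a small proteoglycan gene, rose by 0.90 ± 0.21 with both series, but the rise lay in series 1: 9.87, 9.91 and 9.79 in NGMT against 8.07 and 7.86 in GMT. In series 2 Epyc read 11.08 to 11.16 in NGMT and 11.004 to 11.04 in GMT.

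Brinp1, Gstt1, Gas2, Itih2, Ptn, Kng1, Cnn1 and Popdc2 made up the rest of the 12 rises, with sizes from 0.38 to 0.59. Popdc2, a Popeye domain gene of heart muscle needed for pacemaking in mouse, read 8.20, 8.47 and 8.20 in NGMT against 7.69 and 7.90 in GMT of series 1. Its values in series 2 were 7.52, 7.33 and 7.43 in NGMT, against 7.16, 7.23 and 7.03 in GMT, a rise of 0.38 ± 0.09 with both series (limma adjusted p = 0.0231). Brinp1, a gene of neural cell cycle restraint, read 7.51 to 7.62 in NGMT against 6.74 and 6.95 in GMT of series 1, and 9.21 to 9.31 in NGMT against 8.74 to 9.13 in GMT of series 2. It rose by 0.52 ± 0.07. Cnn1, the smooth muscle calponin, rose by 0.41 ± 0.09, and its series 2 arrays lay at 6.85 to 7.05 in NGMT and 6.68 to 6.75 in GMT.

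Of 41 cardiac genes listed as dependent on NKX2.5, mainly from mouse work, 32 were tested, and 4 rose and 2 fell with both series (1.63% of all genes were called). The 4 were Nppa, Nppb, Popdc2 and Fgf10 (0.47 ± 0.12), a growth factor of the second heart field. The 2 that fell were Ryr2 and Smpx, a small muscle protein gene (-0.55 ± 0.14). Smpx read 8.01, 8.40 and 8.47 in NGMT against 8.87 and 9.52 in GMT of series 1, and 8.64, 8.56 and 8.51 in NGMT against 8.70, 8.74 and 9.09 in GMT of series 2. The median of the list was -0.02, beside 0.00 over all genes, and 20 of 32 (62.5%) had the same sign in both series. In series 1, 5 of the 32 rose and 4 fell, beside 2.31% and 2.39% of all genes, and in series 2 Nppa alone was called. Without GMT replicate 2, 2 rises and 1 fall were called with both series. Among 13 tested natriuretic and atrial genes of 20, Nppa and Nppb rose and none fell with both series (median -0.03). Series 1 gave 3 rises and 1 fall in that list. None of 9 tested ventricular genes was called (median -0.06). The ventricular genes Myl2, Myl3 and Irx4 lay below the signal minimum and were not tested. Of 15 tested genes of natriuretic peptide and cyclic GMP signalling, none rose and 2 fell, Gucy1b1 and Gucy1a1 (-0.53 ± 0.10), the subunits of soluble guanylyl cyclase. Gucy1b1 was called without GMT replicate 2 and Gucy1a1 was not (adjusted p = 0.0774). Npr3, the natriuretic peptide clearance receptor, was 0.47 ± 0.13 and Npr2, the receptor of C-type peptide, was -0.13 ± 0.06, neither called (limma adjusted p = 0.0788 and 0.389).

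Most called sarcomere genes were lower in NGMT, mainly in series 1. Of 72 listed genes 53 were tested. With both series 4 fell (Myom2, Actn2, Csrp3 and Smpx) and 2 rose (Myl9 and Pdlim3), beside 0.942% of all genes called lower and 0.688% higher. In series 1 alone 14 fell and 1 rose, beside 2.39% and 2.31%. The list's median was -0.08 in series 1, 0.02 in series 2 and -0.04 with both, beside -0.01, 0.01 and 0.00 over all genes. Myom2, which crosslinks myosin at the M-band, read 8.64, 8.68 and 9.06 in NGMT against 9.92 and 10.20 in GMT of series 1, and 7.03, 7.05 and 7.34 in NGMT against 7.50, 7.34 and 7.84 in GMT of series 2 (-0.79 ± 0.12). Actn2, the alpha-actinin of the Z-disc, fell in series 1 (-0.84 ± 0.09) and was -0.07 ± 0.08 in series 2. Csrp3, the Z-disc LIM protein, was -0.75 ± 0.09 and -0.13 ± 0.08. Actc1, cardiac alpha-actin, read 10.39, 10.57 and 10.61 in NGMT against 11.56 and 11.59 in GMT of series 1, but 10.45, 10.14 and 10.46 in NGMT against 10.11, 10.02 and 10.21 in GMT of series 2. It fell in series 1 (-1.05 ± 0.11) and was 0.24 ± 0.10 in series 2. Tnnt2 was not called with both series (-0.15 ± 0.06, limma adjusted p = 0.331). Without GMT replicate 2 the count was 1 rise and 1 fall with both series, and 0 rises and 6 falls in series 1.

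Calcium handling gave 2 falls and no rise among 26 tested genes of 40, Ryr2 and the junctophilin Jph1 (-0.25 ± 0.05), which joins the plasma membrane to the sarcoplasmic reticulum. Over all genes 0.942% were called lower. Ryr2 was the 1 fall without GMT replicate 2, and Jph1 had an adjusted p of 0.0907. In series 1 the pump gene Atp2a2 fell as well (-0.35 ± 0.08) and the T-type calcium channel Cacna1g rose (0.77 ± 0.13). These were -0.07 ± 0.08 and 0.01 ± 0.12 in series 2. In the list of ion channels, transporters and gap junctions, 25 of 47 genes were tested, with 3 rises and 2 falls, beside 0.688% of all genes called higher and 0.942% lower. The rises were Popdc2, the sodium channel gene Scn7a (0.69 ± 0.16) and the sodium pump regulator Fxyd1 (0.44 ± 0.11). Bves (-0.43 ± 0.09) and Popdc3 (-0.27 ± 0.06), the other Popeye genes, fell. Without GMT replicate 2 none of these 5 was called, and the adjusted p was 0.0907 for Popdc2, 0.0880 for Bves and 0.120 for Popdc3. Scn7a and Fxyd1 also lost the call without GMT replicate 1, NGMT replicate 1, NGMT replicate 2 or NGMT replicate 5, and Popdc2 without GMT replicate 1 or NGMT replicate 2. Of 40 tested cardiac transcription regulators, 1 was called, Csrp3, which is also counted in the sarcomere list and was not called without GMT replicate 1 or GMT replicate 2. Myocd, the coactivator of serum response factor, rose in series 1 (0.32 ± 0.08, limma adjusted p = 0.0207) and missed the threshold with both series (0.22 ± 0.06, adjusted p = 0.0501). It lay below the array median on all 11 arrays, where a reading can be background (6.11, 6.15 and 6.35 in NGMT against 5.87 and 5.89 in GMT of series 1). It entered the test through the DMT and DMNT arrays, whose cells received MYOCD, and its rise in series 1 was not called without GMT replicate 1, GMT replicate 2 or NGMT replicate 3.

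In the fibroblast and extracellular matrix list, 60 of 62 genes were tested. In series 1, 11 rose and 1 fell, beside 2.31% of all genes called higher and 2.39% lower. With both series 4 rose and 1 fell, beside 0.688% and 0.942% of all genes. The median was 0.21 in series 1, 0.04 in series 2 and 0.10 with both, beside -0.01, 0.01 and 0.00 over all genes. The 4 rises were Epyc, Col14a1, Mfap5 and Thy1, and Twist2, a mesenchymal transcription factor gene, fell (-0.34 ± 0.07). Col14a1, a collagen of the fibril surface, read 7.64, 7.57 and 7.35 in NGMT against 6.83 and 6.65 in GMT of series 1, and 8.44, 8.54 and 8.15 in NGMT against 7.83, 8.29 and 7.92 in GMT of series 2 (0.55 ± 0.09). Its 0F arrays read 10.49 to 10.53. Mfap5, of elastic fibres, was 0.49 ± 0.12, and Thy1, a fibroblast surface marker, was 0.26 ± 0.06. In series 1 Postn (0.89 ± 0.18), Col3a1 (0.60 ± 0.15) and Col6a1 (0.55 ± 0.10) also rose, and in series 2 they were 0.04 ± 0.16, 0.03 ± 0.13 and 0.05 ± 0.09. Without GMT replicate 2, 1 rise and no fall were called with both series, and 3 rises in series 1, and without GMT replicate 5 there were 9 rises with both series. The log2 summed signal of the list was 17.16 to 17.34 in NGMT and 17.07 to 17.16 in GMT of series 1, and 17.61 to 17.73 in NGMT and 17.52 to 17.74 in GMT of series 2. What moved the list with the sarcomere genes in series 1 was not tested.

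**Figure D4:**
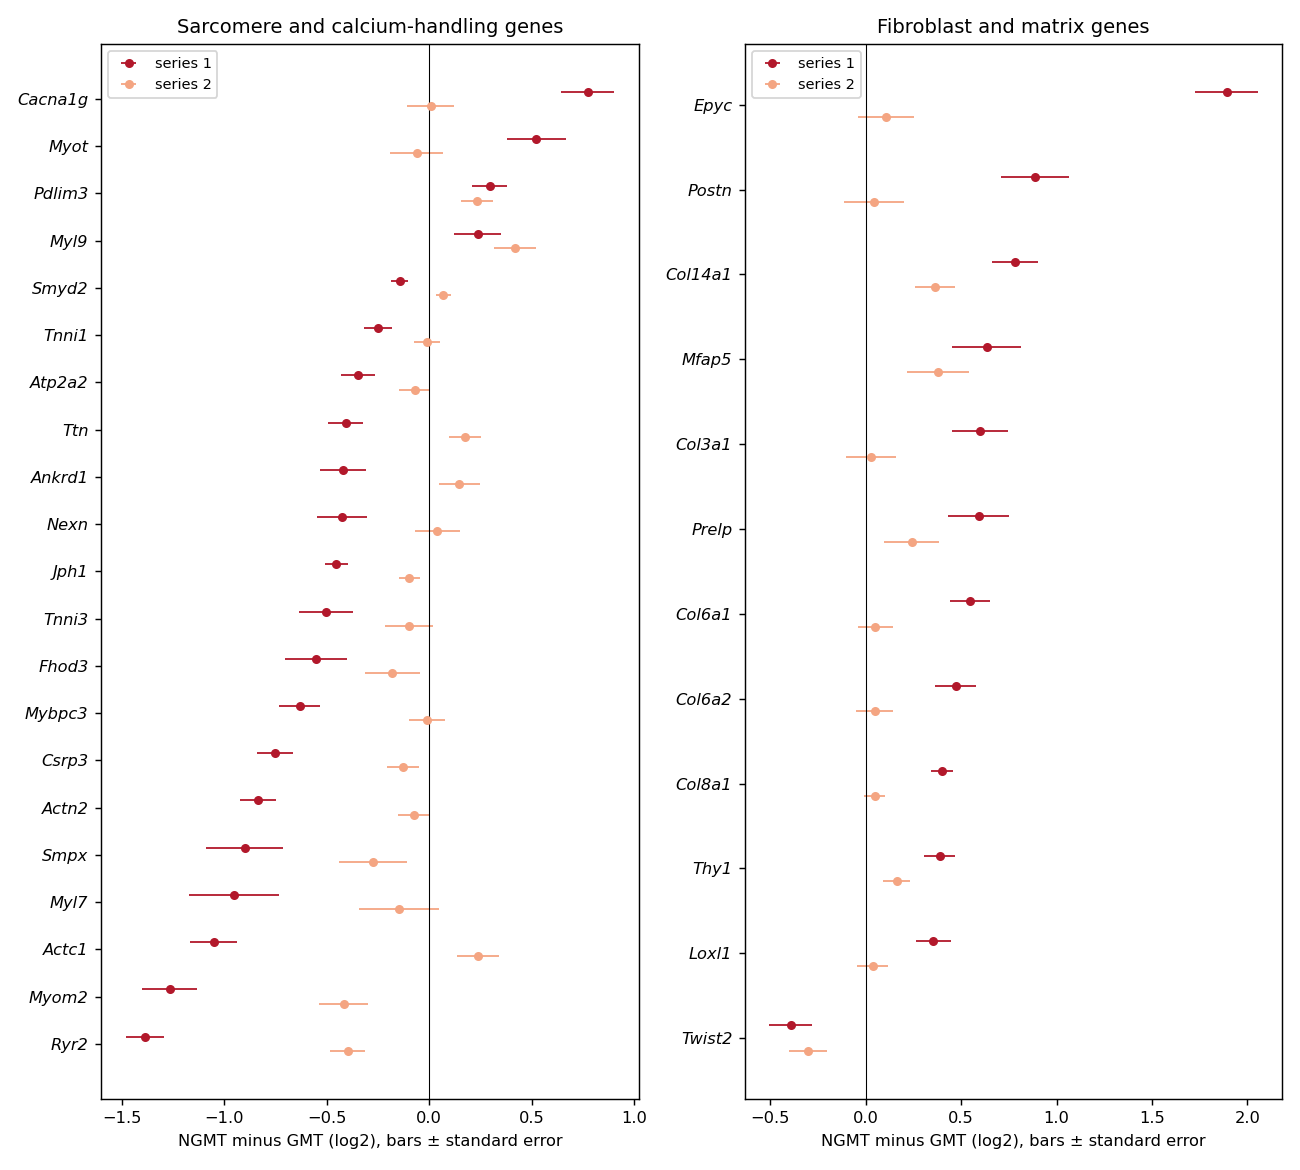
Difference NGMT minus GMT (log2, dots) with its standard error (bars) in series 1 and series 2, for sarcomere and calcium-handling genes on the left and fibroblast and matrix genes on the right that were called in series 1 or with both series. Series 2 dots lie nearer to 0 than series 1 dots for most genes, and Actc1 lies at -1.05 in series 1 and 0.24 in series 2.

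Lists of other cell types gave few calls with both series. Over all genes, 0.688% were called higher and 0.942% lower, and each count below stands beside these shares. In 15 tested mesothelial, epicardial and epithelial genes, Krt8 (0.61 ± 0.11) and Gpm6a (0.41 ± 0.08) rose and none fell. Krt8, a keratin of simple epithelia, read 9.89, 9.88 and 10.00 in NGMT against 8.80 and 8.95 in GMT of series 1, and 7.80, 7.64 and 7.84 in NGMT against 7.65, 7.42 and 7.44 in GMT of series 2. The mesothelial marker Msln was not called (-0.10 ± 0.08). Of 24 tested smooth muscle genes 2 rose, Cnn1 and the regulatory light chain Myl9 (0.34 ± 0.08). Myl9 was 0.24 ± 0.12 in series 1 and 0.42 ± 0.10 in series 2. Myl9 was called without GMT replicate 2 and Cnn1 was not (adjusted p = 0.0929). No gene was called among 15 endothelial, 15 macrophage, 18 adipocyte, 34 interferon response or 30 p53 target genes tested, with medians of -0.03, 0.01, 0.05, -0.05 and 0.02. Map2 rose among 6 tested neural and glial genes (0.30 ± 0.07). The glycolytic Eno3 fell among 15 skeletal muscle genes (-0.20 ± 0.04) and Cenpa among 23 cell cycle genes (-0.38 ± 0.10). Pdk4, which blocks glucose oxidation, was the only gene called of 40 in oxidative metabolism (-0.35 ± 0.06), and Bmp2 (-0.47 ± 0.12) and Smad1 (-0.20 ± 0.05) fell among 44 genes of TGF-beta and BMP signalling. None of these 6 genes was called without GMT replicate 2 (adjusted p = 0.0517 for Pdk4 and 0.208 to 0.335 for the other 5), and without GMT replicate 5 Pdk4 was the 1 still called. Map2, Eno3, Cenpa, Bmp2 and Smad1 also lost the call without NGMT replicate 1 or NGMT replicate 2.

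The response differed between the series by a test of that difference in 78 genes (0.639%), 33 with the higher signed difference in series 1 (0.27%) and 45 with the lower (0.369%). Of these, 77 were called in series 1 and were larger in size there, and 28 had opposite signs. Serpina3b, a secreted serine protease inhibitor, read 8.06, 8.35 and 8.72 in NGMT against 10.14 and 10.27 in GMT of series 1. Its series 2 values, 5.76, 5.70 and 6.07 in NGMT against 6.04, 5.87 and 6.32 in GMT, were below the array median in both groups. Its difference was -1.83 ± 0.14 in series 1 and -0.23 ± 0.12 in series 2. Ccl11, the chemokine eotaxin, read 9.15, 8.29 and 8.62 in NGMT against 6.72 and 7.27 in GMT of series 1, and 7.70, 7.71 and 7.82 in NGMT against 7.92, 8.16 and 7.45 in GMT of series 2. It rose in series 1 (1.70 ± 0.23) and was -0.10 ± 0.20 in series 2. Slc2a3, a glucose transporter, read 8.42, 8.55 and 8.39 in NGMT against 7.48 and 7.50 in GMT of series 1, and 6.64, 6.90 and 6.80 in NGMT against 6.73, 6.83 and 7.04 in GMT of series 2. It rose in series 1 (0.96 ± 0.09) and was -0.09 ± 0.08 in series 2.

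Cd83 and Upk1b were the calls of series 2 that series 1 did not hold, and both were chosen after their values were seen. Cd83, a surface protein of mature dendritic cells, read 7.25, 7.22 and 7.32 in NGMT, against 7.94, 7.67 and 8.04 in GMT of series 2. In series 1 it read 6.01, 6.01 and 5.92 in NGMT against 5.99 and 6.09 in GMT, below the array median in both groups. It differed by -0.62 ± 0.08 in series 2 and -0.06 ± 0.09 in series 1, and was the 1 gene of the 78 whose change was larger in series 2. Upk1b, a uroplakin gene of urothelium and mesothelium, fell by 0.61 in series 2, with 8.61, 8.54 and 9.01 in NGMT against 9.41, 9.11 and 9.46 in GMT. In series 1 it read 11.83 to 11.95 in NGMT and 11.87 and 11.94 in GMT.

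The same factor was also added to HGMT, on arrays of the set of series 2. HNGMT differed from HGMT in 60 genes (0.491%), 14 without HNGMT replicate 1. Nppa read 8.23, 8.42 and 8.48 in HNGMT, against 6.13, 6.38 and 5.98 in HGMT, with no overlap, and rose by 2.22 ± 0.12 (limma adjusted p = 7.96e-11). Of the 199 genes called in NGMT against GMT, 4 were also called here, Nppa, Slc44a2, Tmem150a and Aldh3a1, and 137 (68.8%) had the same sign, against 56.7% of all genes tested. Without HNGMT replicate 1 these were 2 genes, Nppa and Slc44a2, and 63.3% against 52.5%. Atp8a1 was -0.09 ± 0.12, Nppb 0.16 ± 0.11 and Ryr2 -0.14 ± 0.08, none called. The difference of the 2 responses within the set, HNGMT minus HGMT against NGMT minus GMT, was called for none of 12211 genes by limma (0%), with 1157 genes at an unadjusted p under 0.05 and 134 called when arrays were weighted. It was -0.66 ± 0.17 for Nppa and 0.61 ± 0.16 for Atp8a1 (adjusted p = 0.442 and 0.455). Nppa lay below the array median on all HGMT arrays. Atp8a1 had a mean of 7.07 in HGMT, near the array medians of 6.90 to 6.95, and 6.98 in HNGMT. Its means in series 2 were 8.73 in GMT and 8.03 in NGMT. Whether low starting levels limit these differences was not tested.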

How the data were processed

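Biotin-labelled total RNA was hybridized to single-channel mouse arrays, per the labels. The authors deposited log2 signal for 35556 probe sets on 28 arrays (3.76 to 14.47). MAS5 is the one tool in the submitters' processing notes, and the sources used here do not say how values were scaled. No column was left unused. Groups came from the titles. Distances between sorted values placed the arrays in 3 sets, series 1, series 2 and a further set of DMT replicate 4 with DMNT (at most 0.0486 inside a set, at least 0.135 between sets).

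Of the probe sets, 21789 had 1 gene symbol, 1621 several and 12146 none. For each of 19938 genes the probe set with the highest mean was used, and 12211 genes above the array median on at least 3 arrays were tested with limma 3.58.1 (R 4.3.3; lmFit, eBayes with trend, two-sided). The both-series contrast had 19 residual degrees of freedom. Differences within a series, between series and with Hand2 came from means per group and set (18 degrees of freedom). The number of arrays limits the precision (median 95% half-width 0.11 with both series, 0.22 for the difference between series). The fit was tested on simulated data.

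Named genes were the delivered factors, genes that agree, the 12 largest rises and 12 largest falls without overlap, up to 4 called members of each gene list (2 of smallest p where fewer than 2 were called), the 8 largest differences between series in each direction and up to 6 for Hand2. The text names part of them. Members, lists and rule were chosen with earlier results of these data known. Of 741 list entries, old symbols were updated through RefSeq synonyms. Promoters are from RefSeq, GRCm38.p6.

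Replicate numbers in the titles are shared by both groups. The deviations of same-numbered arrays correlated at 0.01 to 0.41, not over 0.1 in every pair, so the numbers were not taken to pair arrays. Title number 3 joins an NGMT array of series 1 with a GMT array of series 2 (0.38). Pairs by the numbers in the sample names of series 2 gave -0.24 to 0.12. Alternatives covered the arrays fitted, quantile normalization, the filter, probe set means, array weights, no trend, the set term, a replicate block and each array left out. Those without the third set or HNGMT replicate 1 were added after the data were seen.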

Additional observations from a re-analysis of the deposited data

Results flagged for a closer look

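The response to NKX2.5 differed between series in 78 genes, by the interaction contrast of series 1 minus series 2 in limma. Among those named by rule, the change was lower in series 1 for Serpina3b (-1.59), Actc1 (-1.29), Fgf23 (-1.16), Npnt (-1.09), Cxcl16 (-1.03), Ryr2 (-0.99), Rtn1 (-0.97), Lgi2 (-0.92), Myom2 (-0.85), Bmp3 (-0.83), Cd14 (-0.82), Gucy1b1 (-0.81), Sphkap (-0.80), Actn2 (-0.76), Csrp3 (-0.62) and Jph1 (-0.36). It was higher in series 1 for Ccl11 (1.79), Epyc (1.79), Slc2a3 (1.05), Epha3 (1.02), Apln (0.82), Emb (0.81), Islr (0.80), Lipg (0.79), Krt8 (0.79), Nppb (0.78), Fxyd1 (0.70) and Mbp (0.47). The series differ in their cultures, array set and scaling together, which cannot be told apart.

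After the series means were aligned, 160 checks of a gene in a group were made by Dixon's test. An array stood apart from the rest of its group in 11 of them, where chance gives about 1 in 20. In NGMT replicate 5 these were Nppa (11.72, other arrays 12.13 to 12.33), Tbx5 (8.03), Bves (7.34) and Eno3 (9.78). NGMT replicate 3 stood apart for Myocd (6.35) and Myl9 (10.73), and NGMT replicate 6 for Cck (10.84) and Dgat2 (8.09). For NGMT replicate 4 it was the macrophage gene Lyz2 (7.14, other arrays 4.84 to 5.35), for NGMT replicate 1 Actn3 (6.92), and for GMT replicate 5 Nkx2-5 (7.56).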

How the results depend on the processing

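Among the alternatives run, none reversed a called difference of a named gene, while differences near 0 that were not called could change sign. Ranges below are over leaving out each of the 11 NGMT and GMT arrays. Nppa was called under all alternatives with both series (2.91 to 3.09 with 1 array left out), in series 1 (2.98 to 3.31) and in series 2 (2.74 to 3.04). Counts depended on the arrays in the fit. With both series, 199 genes became 2 without a set term, 19 with the 11 arrays alone, 386 without HNGMT replicate 1 and 101 without the third set, and leaving out 1 of the 11 gave 52 to 379. The 574 genes of series 1 became 274 with that series fitted alone and 909 without HNGMT replicate 1 (159 to 724 with 1 array left out). The 4 of series 2 became 16 with array weights, 12 with no filter, 8 without HNGMT replicate 1, 2 without the third set and 1 with the 11 arrays or series 2 alone (2 to 9 with 1 array left out). The 78 differences between series became 420 with array weights, 189 without HNGMT replicate 1, 35 without the third set, 129 without both and 17 with the 11 arrays (23 to 179 with 1 array left out). Genes that agreed were 1 with the 11 arrays, without the third set or without both (1 to 4 with 1 array left out). For Hand2, 0 became 134 with array weights and 1 with no filter (0 to 2 with 1 array left out).

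A replicate block on the title numbers, with 3 residual degrees of freedom, left 2 genes with both series, and Atp8a1 at -0.98 (adjusted p = 0.322). The title numbers join NGMT replicate 3 of series 1 with GMT replicate 3 of series 2. A replicate block on the numbers in the sample names left 1 gene in series 2. Atp8a1 stayed at -0.70 in series 2 but was not called under that block (adjusted p = 0.157), with the 11 arrays (0.4999), series 2 alone (0.999) or without the third set (0.0780). With 1 array left out it was -0.96 to -0.81, -1.18 to -0.98 in series 1 and -0.82 to -0.60 in series 2. Of the other named genes, 306 of 1124 alternative values with both series lost the call, 71 of 1250 in series 1 and 84 of 585 between series. Causes were not tested. Without a detection call, signal below the array median may be background.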
